A study of Homo sapiens with 3 samples.

Results

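The cytosolic ribosomal protein genes encode the proteins of the large subunit (RPL and RPLP symbols) and of the small subunit (RPS symbols) of the ribosome that translates nuclear mRNAs. Members were chosen by symbol alone, as the protein-coding genes whose name is RPL, RPS or RPLP followed by a number and at most an A, X or L with a digit. By this rule 83 of 19974 protein-coding genes were members, 52 of the large and 31 of the small subunit. Pseudogenes were left out.

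EP300 was mapped by chromatin immunoprecipitation and sequencing (ChIP-seq) in H9 cells, an established human embryonic stem cell line. All samples were wild type and in the naive state, in PXGL culture. This is N2B27 medium with the MEK inhibitor PD0325901, the tankyrase inhibitor XAV939, the protein kinase C inhibitor Gö 6983 and human LIF at 10 ng/mL, over mouse embryonic fibroblast (MEF) feeders. There were 2 samples with an EP300 antibody, called replicate 1 and replicate 2 here, and 1 input sample. The labels do not state whether these replicates come from different cultures. Their spread can therefore be technical, and there was no other condition to set them against. Each replicate had its own list of peaks, 65276 in replicate 1 and 64896 in replicate 2, and the read depth behind them is unknown. The promoters of the pluripotency genes POU5F1, LIN28A and SALL4 and of the naive-state genes TFAP2C, DNMT3L, KLF17 and DPPA5 all had a peak in both lists. So did those of 66.9% of all coding genes. The KLF17 peak was weak in replicate 1, with a fold enrichment of 2.90 against a list median of 4.51. A peak is not a measurement of expression.

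A ribosome needs its proteins in near-equal amounts, and their genes, spread over the chromosomes, are among the most actively transcribed in growing cells. Their mRNAs typically begin with a C followed by a run of pyrimidines, the terminal oligopyrimidine (TOP) start, through which mTOR signalling controls their translation. EP300 is a histone acetyltransferase and coactivator that is found at active promoters and enhancers, where it is brought by DNA-bound factors.

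Promoter sequences show what the members share beside their names. RefSeq promoter windows (GRCh38.p14) matched 66 of the 83 members. Those without a window included RPL23, RPL23A, RPL30, RPL37, RPL39L, RPL3L, RPL5, RPL7, RPL8, RPS15A, RPS2 and RPS20. Below are 120 bases for 12 members, from 100 before to 20 after the RefSeq start, 5′ to 3′ on the strand of the gene. Capitals mark the pyrimidine run that begins at the start (a C and at least 4 further C or T), the ETS-family core CCGGAAG and the element TCTCGCG, the last 2 on either strand. The first 8 are 4 parent genes, each followed by its paralog, because the pyrimidine run separates most of these pairs.
RPL22: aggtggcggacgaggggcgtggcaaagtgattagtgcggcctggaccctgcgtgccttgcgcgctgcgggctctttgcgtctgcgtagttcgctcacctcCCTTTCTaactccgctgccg
RPL22L1: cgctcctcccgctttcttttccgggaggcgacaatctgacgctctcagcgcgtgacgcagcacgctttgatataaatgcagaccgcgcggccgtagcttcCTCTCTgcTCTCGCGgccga
RPL10: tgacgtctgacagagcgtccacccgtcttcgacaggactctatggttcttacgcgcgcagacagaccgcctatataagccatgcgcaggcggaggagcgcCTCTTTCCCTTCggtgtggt
RPL10L: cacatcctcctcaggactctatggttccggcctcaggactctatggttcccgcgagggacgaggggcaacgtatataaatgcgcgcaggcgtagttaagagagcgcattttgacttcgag
RPL26: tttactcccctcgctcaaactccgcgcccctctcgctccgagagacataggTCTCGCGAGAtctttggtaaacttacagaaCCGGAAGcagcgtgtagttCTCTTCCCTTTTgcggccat
RPL26L1: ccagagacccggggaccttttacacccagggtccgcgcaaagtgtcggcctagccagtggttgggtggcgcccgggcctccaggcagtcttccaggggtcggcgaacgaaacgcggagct
RPS27: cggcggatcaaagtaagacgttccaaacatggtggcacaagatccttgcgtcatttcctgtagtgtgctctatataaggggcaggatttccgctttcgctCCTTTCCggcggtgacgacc
RPS27L: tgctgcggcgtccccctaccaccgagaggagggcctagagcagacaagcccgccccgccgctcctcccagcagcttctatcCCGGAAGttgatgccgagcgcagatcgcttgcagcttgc

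These lie at chr1:6199576-6199695 on the minus strand (RPL22), chr3:170870176-170870295 on the minus strand (RPL22L1), chrX:154398277-154398396 on the plus strand (RPL10) and chr14:46651762-46651881 on the minus strand (RPL10L). The others lie at chr17:8383174-8383293 on the minus strand (RPL26), chr5:172958629-172958748 on the plus strand (RPL26L1), chr1:153990662-153990781 on the plus strand (RPS27) and chr15:63157458-63157577 on the minus strand (RPS27L). The run was 7 bases long in RPL22, 12 in RPL10, 12 in RPL26 and 7 in RPS27. Of the paralogs, RPL22L1 had a run of 6 bases, and RPL10L, RPL26L1 and RPS27L had none at the RefSeq start. In RPL26 the TCTCGCG element was followed directly by its own overlapping reverse complement, which makes a palindrome, and a CCGGAAG core stood between it and the start.

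A further 4 members are shown for the peaks described below. RPL14 and RPS6 had some of the strongest peaks of the set in at least 1 replicate, and RPL24 and RPL36A had no peak near the start in 1 of the replicates.
RPL14: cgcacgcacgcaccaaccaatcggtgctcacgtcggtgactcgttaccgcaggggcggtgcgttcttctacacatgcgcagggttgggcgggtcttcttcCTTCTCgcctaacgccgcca
RPS6: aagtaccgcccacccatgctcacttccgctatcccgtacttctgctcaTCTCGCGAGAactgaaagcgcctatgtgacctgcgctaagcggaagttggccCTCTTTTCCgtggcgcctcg
RPL24: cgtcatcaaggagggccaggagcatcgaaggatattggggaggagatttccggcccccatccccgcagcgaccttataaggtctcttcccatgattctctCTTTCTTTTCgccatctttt
RPL36A: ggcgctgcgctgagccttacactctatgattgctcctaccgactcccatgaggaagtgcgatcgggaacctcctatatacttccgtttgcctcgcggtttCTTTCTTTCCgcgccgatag

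Their positions are chr3:40457239-40457358 on the plus strand (RPL14), chr9:19380217-19380336 on the minus strand (RPS6), chr3:101686699-101686818 on the minus strand (RPL24) and chrX:101390911-101391030 on the plus strand (RPL36A). The pyrimidine run was 6 bases in RPL14 and 9 in RPS6, against 10 in each of RPL24 and RPL36A. RPL24 and RPL36A thus had the run without a shared peak, while RPL10L had neither.

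Over whole promoter windows, 250 bases before to 50 after the start, 46 of the 66 members (69.7%) had the pyrimidine run at a RefSeq start, against 6.24% of 15812 coding genes. The share was 29 of 42 large subunit genes and 17 of 24 small subunit genes. Only 1 of the 5 paralogs with an L symbol in the table had it, namely RPL22L1. Allowing the run to begin within 5 bases of the start raised the shares to 80.3% of members and 28.0% of coding genes. Among genes listed as other TOP mRNAs the run was found in 13 of 14, and among mitochondrial ribosomal protein genes in 6 of 69.

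The remaining elements were searched by their letters on both strands, except CTTTCC, which was searched on the strand of the gene. TCTCGCG was held by 17 of 66 member promoters (25.8%) against 5.94% of coding promoters and 5.80% of mitochondrial ribosomal protein promoters. CCGGAAG was held by 36.4% of member promoters, against 16.5% of coding promoters and 43.5% of those of mitochondrial ribosomal proteins. The YY1 core AAGATGG was in 13.6% of member promoters against 7.90% of coding promoters, and CTTTCC, which overlaps many of the start runs, in 39.4% against 18.1%. The E-box CACGTG (7.58% against 10.9%), the SP/KLF box GGGCGG (57.6% against 64.2%), TATAAA (10.6% against 12.4%) and the NRF1 core GCATGCG (7.58% against 6.07%) were less frequent in members or differed by under 2 percentage points. A match describes the letters of the window and is not a binding site. Median GC content was 59.7% in member promoters and 62.3% in coding promoters, with a CpG observed-to-expected ratio of 0.914 against 0.737.

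EP300 peaks were found at most ribosomal protein promoters in both replicates. By the gene name that the authors' annotation gives each peak, 67 of 83 members (80.7%) had a promoter peak, within 3 kb of a transcript start, that overlapped between the lists. Over all coding genes, which include genes silent in these cells, the share was 66.9%. The small subunit had 29 of 31 genes (93.5%) and the large subunit 38 of 52 (73.1%). In all, 114 peaks of replicate 1 and 124 of replicate 2 bore a member's name, and 91 of them in each replicate were promoter peaks.

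Many of the missing members lay beneath peaks with another gene's name. Of the 16 members without a shared promoter peak by name, 11 had a RefSeq start that was covered in both lists by a peak named after a neighbouring gene, in 9 cases a large subunit gene. For 10 of these 11 the neighbour was transcribed away from the member on the opposite strand, and for RPL7 the sources used here gave no strand. The starts lay between 82 and 468 bp apart. How often other coding genes without a shared peak by name lay beneath a neighbour's peak is not given here.

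The strongest of these peaks were at the large subunit genes RPL7A, RPL12 and RPL7. At RPL7A the peak named MED22 (chr9:133346496-133349100 in replicate 1) had a fold enrichment of 19.7, and in replicate 2 it had 17.4. Fold enrichment is the authors' own value for each peak and is used here only within its list. At RPL12 the peak named LRSAM1 (chr9:127450672-127452887) had 13.3 and 20.2, and the start of RPL12 lay 83 bp from that of its neighbour. At RPL7 the peak named RDH10 had 17.2 and 15.6, and the starts lay 136 bp apart.

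Other members of this kind had intermediate peaks. RPL27A shared its peak with TRIM66 (11.9 and 14.1), RPS18 with VPS52 (10.9 and 11.5) and RPLP2, a stalk protein, with PIDD1 (9.70 and 9.63). RPS28 lay beneath a peak named for the gene ENSG00000167774 (8.02 and 7.07), RPL4 beneath one named ZWILCH (7.01 and 9.88) and RPL18 beneath one named SPHK2 (5.82 and 7.72). The lowest were RPL9, whose peak was named LIAS (4.08 and 7.55), and RPL35A, whose peak was named IQCG (3.65 and 4.30). Which gene of a divergent pair such a peak belongs to cannot be told apart in these data.

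By position rather than by name, 79 of 83 members (95.2%) had a peak of any name within 1 kb of a RefSeq start in both lists. These were 31 of 31 small subunit genes and 48 of 52 large subunit genes. Among the 66 members of the promoter table the share was 63 (95.5%), and over the coding genes of the same table it was 73.7%. The start base itself was covered in both lists in 64 of 83 members. In the promoter table this was 49 of 66 (74.2%) against 63.3% of coding genes. A shared peak near the start without cover of the start in both lists was found in 14 of the 66 (21.2%) against 10.5% of coding genes. These include starts covered in a single list, as at RPL13A (replicate 1) and RPS12 (replicate 2). They also include starts covered in neither list, as at RPL38. The share therefore mixes peaks that stop short of the start with differences between the replicates.

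The members without a shared peak within 1 kb of the start were RPL10L, RPL24, RPL36A and RPL3L. RPL10L, a testis paralog of RPL10, had no peak in either list. RPL3L, the muscle paralog of RPL3, had a weak peak 1466 bp downstream of the start in replicate 1 (fold 2.66). In replicate 2 a weak peak that did not overlap it covered the start (3.65), and another lay in an exon (3.58). RPL24 had only a 480 bp peak in replicate 2, with a fold of 2.99, at percentile 11.1 of that list. RPL36A, a widely expressed X-linked gene, had a 499 bp peak in replicate 1 alone, with a fold of 6.37. RPL28 had a weak peak at the start in replicate 1 (3.27) and none by name in replicate 2, and its nearby shared peak was named TMEM238 (6.86 and 4.96). RPL10L, RPL3L, RPL24, RPL36A and RPL28 were the 5 members with neither a shared promoter peak by name nor a start covered in both lists. Of these, RPL24, RPL28 and RPL36A are widely expressed large subunit genes.

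**Figure D1:**
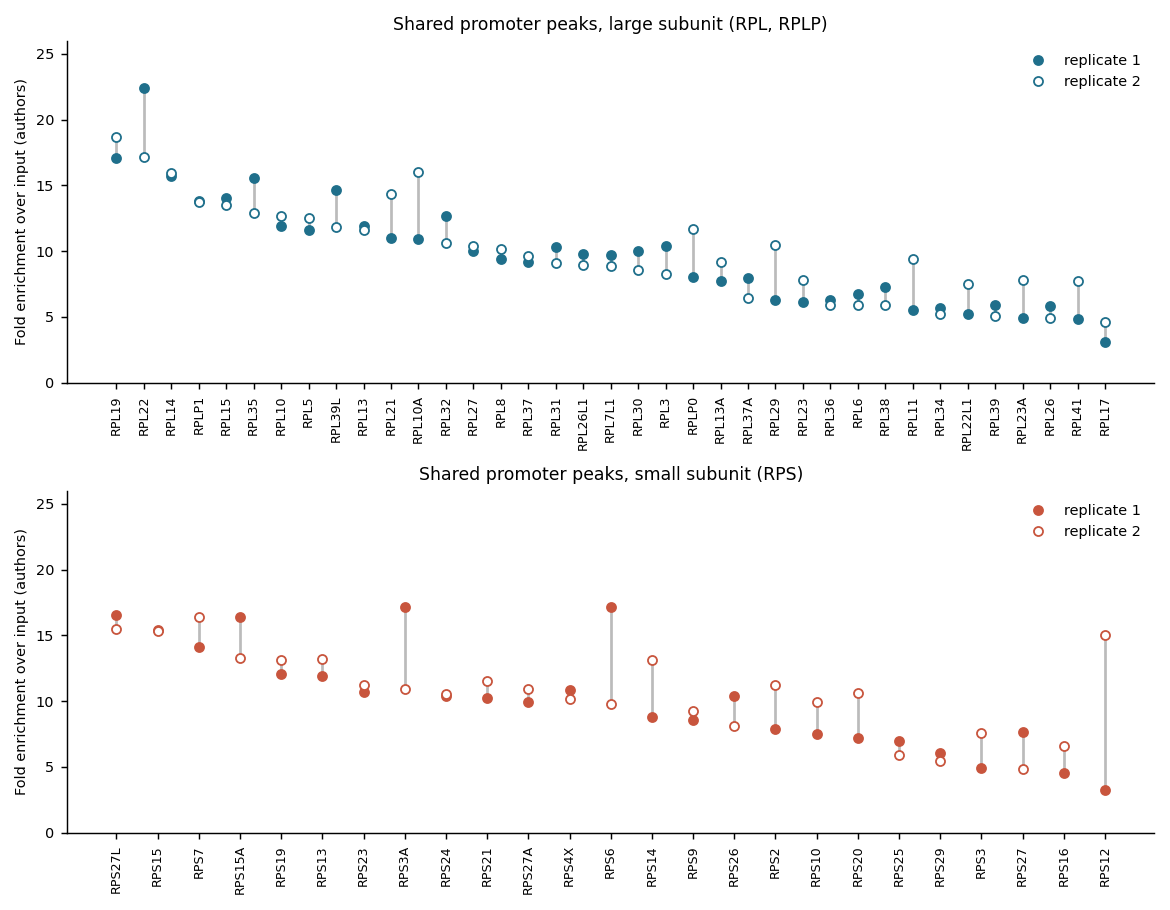
Fold enrichment over input (authors' value, vertical axis) of the shared promoter peak of members reported by name, by subunit, in the order of the lower of both percentiles. Filled points are replicate 1, open points replicate 2 and grey lines join them. RPL22 (22.4 and 17.2) and RPL19 (17.1 and 18.7) stand near the top, and the points of RPS12 (3.24 and 15.0) belong to peaks of different extent.

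Peaks at ribosomal protein promoters were strong within their lists but not set apart from other promoters. Each peak was ranked by its fold enrichment among all peaks of its list, and the percentile (100 is strongest) is used below. The median fold over the 67 shared peaks was 9.95 in replicate 1 and 10.4 in replicate 2, at percentiles 86.4 and 86.9. Shared promoter peaks of 13296 other coding genes had medians of 8.90 and 9.03, at percentiles 83.0 and 82.8. Ranked by −log10 q in place of fold, the order was the opposite, with medians of 80.7 and 81.1 for members and 85.2 in both lists for the other genes. At percentile 90 or above in both lists were 16 of 67 members (23.9%), 9 of 38 large and 7 of 29 small subunit genes, against 25.7% of the shared promoter peaks of all coding genes, so members were among the strongest peaks at about the background rate.

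Large subunit genes were among those with the strongest peaks. RPL22 had a fold of 22.4 in replicate 1 and 17.2 in replicate 2 (percentiles 99.4 and 97.3), at chr1:6198864-6200616 and chr1:6198776-6199680. RPL19 had 17.1 and 18.7 in a peak of only 754 and 763 bp (chr17:39200144-39200897 in replicate 1). The values for both genes were above the upper quartile of members (11.9 and 12.8) in both replicates.

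High values were also found at RPL14 (15.7 and 15.9), RPS27L (16.5 and 15.5), RPS15 (15.4 and 15.3), RPS7 (14.1 and 16.4) and the stalk protein RPLP1 (13.8 and 13.7). RPL14 and RPLP1 again had short peaks, of 605 and 703 bp and of 710 and 713 bp. High fold and short width met in RPL19, RPL14 and RPLP1, and also in the small subunit gene RPS15A (16.4 and 13.2, over 671 and 627 bp). Across the 67 members, the Spearman correlation of width and percentile was 0.41 in replicate 1 and 0.30 in replicate 2, a description over genes that share a library and its input.

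The lowest shared peaks were those of RPL17, RPS12, RPS16, RPL41 and RPS27, and in RPL17 and RPS12 the naming of peaks set the value. The overlapping peaks with the name of RPL17 lay upstream (3.06 and 4.58). In replicate 1 a peak over another annotated start (7.97) bore its name and ended at chr18:49492456, just short of the RefSeq start at 49492465. In replicate 2 the peak there (6.05) covered the RefSeq start and was named after the read-through transcript RPL17-C18orf32. For RPS12, replicate 1 had a 421 bp peak (3.24) downstream of the start and a stronger one upstream (chr6:132813084-132814261, 15.6) named SLC18B1, while a single RPS12 peak of 1847 bp (15.0) spanned that region in replicate 2.

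RPS16 (4.56 and 6.60), RPL41 (4.81 and 7.72), which encodes the smallest ribosomal protein, and RPS27 (7.63 and 4.84) also had weak peaks. These 3 stood below the median of members in both replicates. Only RPL17 and RPS12, each in replicate 1, gave a shared peak below percentile 50.

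**Figure D2:**
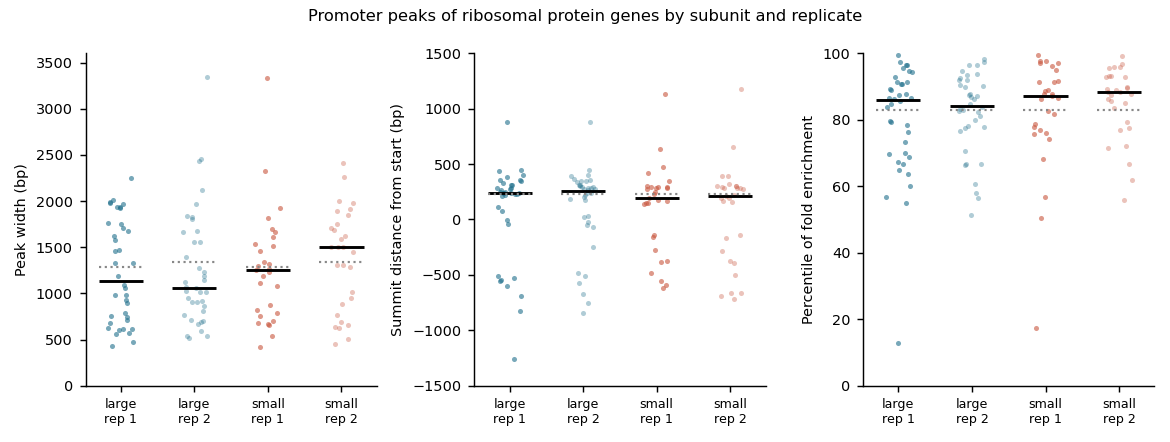
Width in bp, signed distance in bp of the strongest summit from the transcript start and percentile of fold enrichment for each shared promoter peak, by subunit and replicate. Points are genes, black bars the group medians and dotted lines the medians of other coding genes, and RPL39L lies outside the distance axis. The clouds of both subunits overlap over nearly their whole range.

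Large and small subunit genes differed little in width, rank or position of the peak. Median width was 1137.5 and 1062.5 bp in the 38 large subunit genes and 1256 and 1498 bp in the 29 small subunit genes. The difference, large minus small, was −119 bp in replicate 1 and −436 bp in replicate 2, a mean of −277 ± 224 bp (SD, n = 2). Each interquartile range, 719 to 1741 bp for large and 782 to 1538 bp for small subunit genes in replicate 1, held the other group's median. Where only peaks of any name that cover a RefSeq start were used (30 large and 19 small subunit genes), the difference was −26.8 bp, and with peaks of a fold of at least 5 it was −165.5 bp.

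Median percentile was 85.9 and 84.3 in large and 87.3 and 88.4 in small subunit genes. The difference of −2.75 ± 1.92 percentiles (SD, n = 2) became −1.49 at a fold of at least 5, −1.78 by −log10 q, −4.28 when ranked among promoter peaks and −0.64 with peaks of any name at RefSeq starts. The strongest summit lay a median of 238.5 and 253.5 bp downstream of the start in large and 196 and 210 bp in small subunit genes. That difference, 43.0 ± 0.71 bp (SD, n = 2), was close between replicates but fell to 1.25 bp with peaks of any name at RefSeq starts. Genes are not replicates, so no test was made of the subunits. None of the 3 differences kept its size with peaks of any name that cover a RefSeq start. That choice also changed the genes, from 38 large and 29 small to 30 large and 19 small, so the effects of position and of gene set cannot be told apart.

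**Figure D3:**
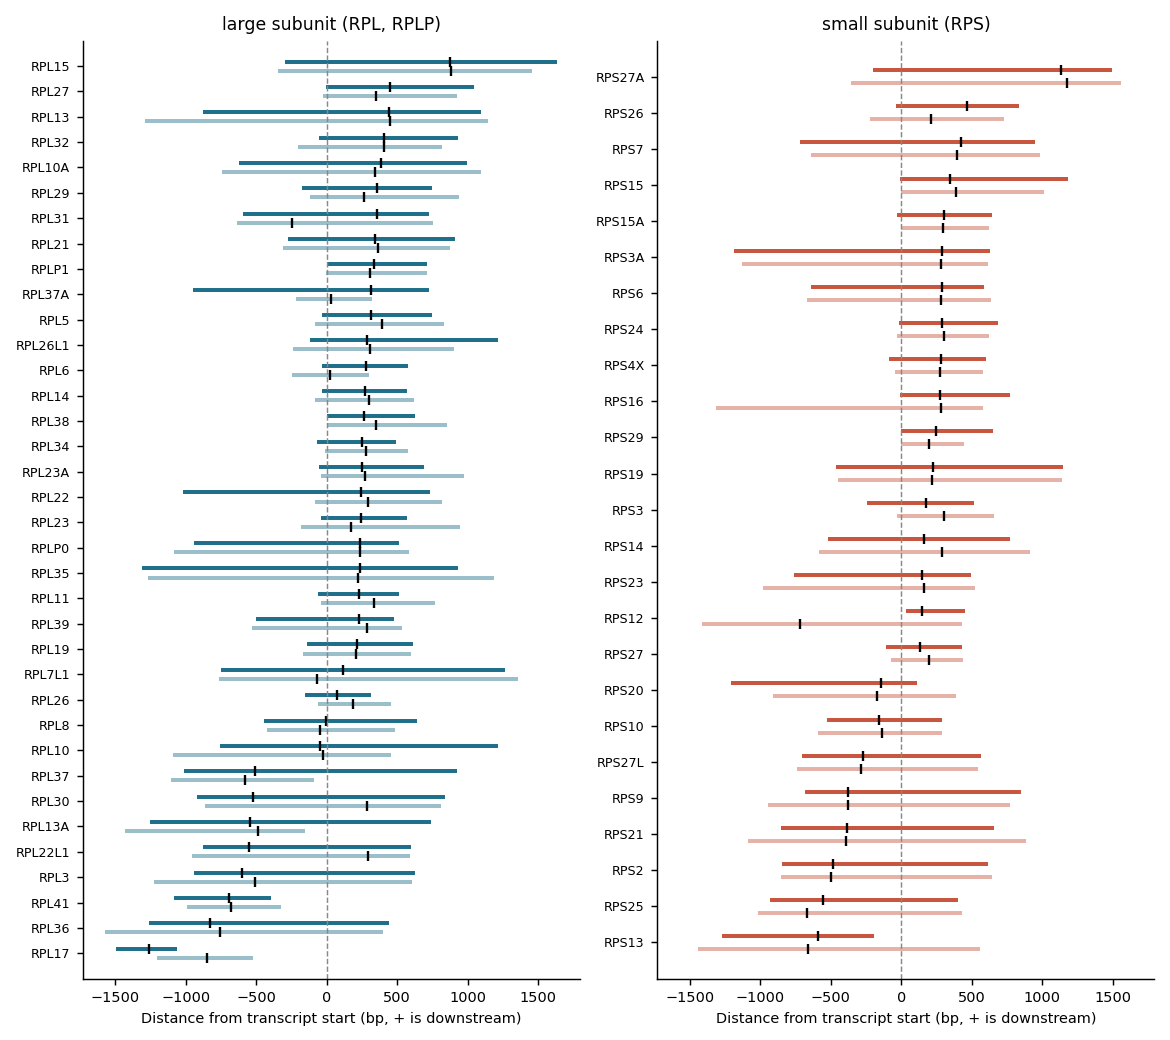
Extent of the shared promoter peaks of members reported by name (horizontal bars) and their strongest summit (black tick) as distance in bp from the transcript start in the authors' annotation, positive downstream, with genes ordered by summit and RPL39L left out. Dark bars are replicate 1 and pale bars replicate 2. Most summits lie downstream of the dashed start line, and a smaller group with RPS25, RPS13 and RPL3 lies upstream.

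The strongest summit lay typically just inside the gene. Its median distance from the start was 235 and 239 bp downstream over the 67 members, against 230 bp in both replicates over other coding genes. In 41 members (61.2%) the summit was over 100 bp downstream in both lists, against 62.8% of the shared promoter peaks of all coding genes, and in 16 it was over 100 bp upstream in both, 23.9% of members against 17.6%. The remaining 10 changed side or lay nearer. Neither side was far from its background.

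Summits on the start itself were fewer. Within 100 bp of the start lay 3 of 67 summits in replicate 1 and 5 in replicate 2 (4.48% and 7.46%), against 10.9% and 11.0% in other coding genes. By the annotated start all of these were in large subunit genes, among them RPL8 and RPL10, and none in the 29 small subunit genes. This split depended on the start taken. From RefSeq starts covered by a peak of any name, such summits were found in 1 and 2 of 30 large subunit genes. In small subunit genes they were found in 2 and 1 of 19.

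Members with upstream summits included RPL3, RPL13A, RPL37, RPL41, RPS2, RPS13, RPS21 and RPS25. RPL13A, known for its part in silencing inflammatory mRNAs, had summits at −545 and −485 bp, where a minus sign marks upstream. RPS25, needed for initiation at some viral internal entry sites, had them at −553 and −666 bp. By the annotated start, the 16 members with upstream summits had wider and lower peaks, of 1399 and 1476 bp at median percentiles of 80.3 and 84.1. The 41 with downstream summits had medians of 987 and 1060 bp at percentiles of 88.9 and 88.4. The 16 include RPS10, whose summits lay 332 and 353 bp downstream of the RefSeq start. They also include RPL36, at −10094 and −10023 bp by RefSeq, and RPL17 and RPL39L, whose peaks also depend on the start or name taken.

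At some members the peak began close to the start. The upstream edge lay within 100 bp of a RefSeq start in both lists in 9 of 52 members (17.3%), against 7.58% over the coding genes for which both could be measured. These were RPL27, RPL38, RPLP1, RPS10, RPS15, RPS24, RPS26, RPS27 and RPS4X, the X-linked gene that escapes X inactivation. The edge at RPS15 lay 14 bp downstream of the start in replicate 1 and 1 bp downstream in replicate 2. At RPL38 it lay 16 bp downstream in both, and at RPS27 50 and 89 bp downstream. Such edges were found in 3 of 30 large and 6 of 22 small subunit genes.

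Several of the farthest summits depended on which start was taken. RPL39L, the male germ cell paralog of RPL39, had the summit of its strongest promoter peak at −3507 and −3498 bp from the annotated start. That start (chr3:187180908, minus strand) lies far upstream of the RefSeq gene, which spans chr3:187120948-187139496. RPS27A, which encodes ubiquitin fused to a small subunit protein, had its summit 1131 and 1176 bp downstream of the annotated start but 346 and 391 bp from the nearest RefSeq start. The summit of RPL15 lay 878 and 879 bp downstream by the annotation and 337 and 338 bp by RefSeq. The upstream peak of RPL17 had its summit at −1263 and −846 bp. For RPL36, the shared peak with the higher rank lay at a distant upstream transcript (6.30 and 5.92), while the peak at the main start had 11.0 in replicate 1 and 4.81 in replicate 2.

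Peaks of members were about as wide as those of other coding genes, with medians of 1229 and 1227 bp against 1287 and 1336 bp. Short peaks were somewhat more frequent, since 31.3% and 23.9% were under 800 bp wide against 19.7% and 17.0% in other coding genes. Several summits within a peak were recorded for 43.3% and 38.8% of members against 34.1% and 32.9%. Among the widest were those at RPL39L (1932 and 3346 bp) and RPL35 (2248 and 2451 bp). The narrowest were at RPL26 (470 and 520 bp), RPS27 (543 and 510 bp), RPS29 (653 and 450 bp) and RPL17 (430 and 685 bp).

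A narrow peak was not always the only one at the gene. The start of RPS29 was also covered by a wide peak named LRR1, whose start lay 51 bp away, with folds of 19.2 and 21.1. The peak with the name of RPS29 (6.07 and 5.41) lay 12603 and 12553 bp from the RefSeq start. Upstream of RPL26 a peak named ENSG00000288750 had 10.5 and 8.59, above the 5.83 and 4.93 of the RPL26 peak itself. At SUPT5H, whose start lies 207 bp from that of RPS16, a separate peak of replicate 1 (3.24) fell within the single RPS16 peak of replicate 2.

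The replicates gave like positions and less like strengths. Summits of the 67 members lay a median of 26 bp apart between replicates, against 36 bp in other coding genes, and 57 of them lay under 100 bp apart. In 5 members, RPL17, RPL22L1, RPL30, RPL31 and RPS12, the strongest summit moved by over 400 bp. Percentiles of the replicates had a Pearson correlation of 0.59 and a Spearman correlation of 0.75 across these 67 genes. The rank within the list moved far at RPS12 (percentiles 17.5 and 95.5) and at RPL17 (12.8 and 51.4), where the naming of peaks differed as described above.

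RPS6, the small subunit protein phosphorylated by S6 kinase, stood at percentile 97.6 of replicate 1 and 85.1 of replicate 2, and RPS3A at 97.6 and 88.4. RPL11, which with RPL5 and the 5S rRNA binds MDM2 and restrains it, stood at 63.8 and 83.9. RPL5 itself stood at 90.7 and 91.9. RPL5 thus ranked above RPL11 in each list.

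The stalk that recruits translation factors is built of RPLP0, RPLP1 and RPLP2. RPLP0 had a peak of 8.01 and 11.7 and RPLP1 one of 13.8 and 13.7, while the start of RPLP2 lay under the PIDD1 peak described above. RPLP1 was above RPLP0 in each list.

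Like-named paralogs were compared with their parent genes. RPS27L, a p53 target, had 16.5 and 15.5 against 7.63 and 4.84 for RPS27. RPL39L had 14.7 and 11.8 in its peak near the distant annotated start. It had 7.50 and 7.91 at the start of the RefSeq gene, against 5.93 and 5.06 for RPL39. RPL26L1 had 9.82 and 8.96 against 5.83 and 4.93 for RPL26. In these 3 pairs the paralog was higher in each list by peaks of the genes' own names. The peak named ENSG00000288750 upstream of RPL26 (10.5 and 8.59) was above that of RPL26L1 in replicate 1 and below it in replicate 2.

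In other pairs the parent was higher. RPL22L1 had 5.19 and 7.51 against 22.4 and 17.2 for RPL22, and RPL3 had 10.4 and 8.26 where RPL3L had no shared peak. RPL10, a protein added late to the large subunit, had 11.9 and 12.6 where RPL10L had none. RPL7L1 had 9.72 and 8.90, and RPL7 lay under the stronger RDH10 peak. The 7 paralogs therefore did not share 1 direction against their parents.

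The TOP run at the start did not separate strong from weak peaks. Of the 46 members with the run, 36 had a shared promoter peak by name, at median percentiles of 80.7 and 86.4. Of the 20 without it, 16 had one, at 88.3 and 86.5. Members with the TCTCGCG element had median percentiles of 91.5 and 91.0 (12 shared peaks of 17 members), against 84.1 and 84.8 without it (40 of 49). Among those with the element were RPS15, RPS3A, RPS6 and RPLP1, and also RPL17, RPL26 and RPL22L1, whose peaks stood below the median of members.

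**Figure D4:**
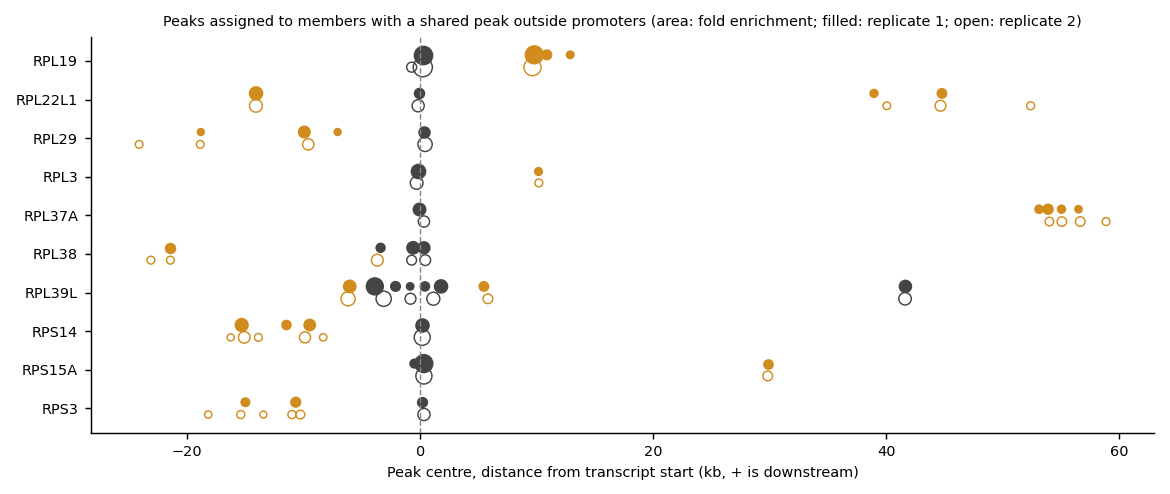
Peaks assigned to the 10 members with a shared peak outside promoters, by the distance in kb of the peak centre from the transcript start, positive downstream. Circle area is proportional to fold enrichment, filled circles are replicate 1, open circles replicate 2, grey promoter peaks and orange other peaks. RPL22L1 and RPL37A have peaks over 20 kb downstream, and RPS14, RPS3 and RPL29 have them upstream.

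Peaks outside promoters were few. A shared peak more than 3 kb from the start by the authors' annotation was assigned to 10 of 83 members (12.0%), against 20.2% of coding genes. There were 23 such peaks in replicate 1 and 33 in replicate 2, and 18 and 19 of them were shared. Their median percentiles were 50.6 and 21.9, against 39.7 and 39.5 for all peaks outside promoters, above it in replicate 1 and below it in replicate 2. The names are those of the nearest start, so a link of such a peak to its gene was not tested.

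The strongest lay beyond the end of RPL19, at chr17:39209499-39210644 in replicate 1 (16.4) and chr17:39208920-39210914 in replicate 2 (15.0), annotated by the authors as a 3′ UTR. RPL22L1 had an upstream intergenic peak at −13727 and −13714 bp (8.80 and 8.37) and an intronic peak downstream (4.57 and 5.98). The intronic peak lay 42499 and 42336 bp from another annotated start (chr3:170868181). The intergenic peak was higher than the promoter peak of RPL22L1 (5.19 and 7.51) in both replicates. RPL39L had 8 peaks in replicate 1 and 6 in replicate 2. Of these, 1 lay at −5537 and −5791 bp (7.77 and 10.2) from the distant annotated start described above.

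RPS14, whose loss underlies the anaemia of the 5q− syndrome, had an upstream peak at −14690 and −14351 bp (8.44 and 6.90). RPS3, a protein of the mRNA entry, had 3 peaks in replicate 1 and 6 in replicate 2, and those outside its promoter had folds from 2.50 to 4.91. RPL37A had 4 intronic peaks in each replicate, with folds from 2.73 to 5.06. They lay 22700 to 28310 bp downstream of another annotated start (chr2:216529025). That start is itself beyond the end of the RefSeq gene, which spans chr2:216498844-216504086. RPL29 had peaks of up to 6.87 in replicate 1 and 6.52 in replicate 2, and RPL38 of up to 5.16 and 7.12. The peaks of RPL3 (3.07 and 3.13) and RPS15A (4.44 and 4.83) were lower. RPL19 and RPL22L1 thus had the only shared peaks outside promoters above percentile 80 in both lists.

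In 18 members more than 1 peak was assigned in both lists, and the same share over all coding genes is not given here. Beside the 10 members just counted, these were RPL6, RPL8, RPL10, RPL13, RPL22, RPL32, RPL36 and RPLP1, whose further peaks all lay within promoter windows. RPL22 had a further peak at another annotated start, with 11.8 and 10.5. RPL13 had one further downstream, 2767 and 2863 bp from another annotated start, with 11.2 and 10.2 beside 11.9 and 11.6 for the peak at the first start. RPL6 had peaks at both of its starts, with 6.76 and 5.91 at the one and 5.93 and 4.97 at the other.

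**Figure D5:**
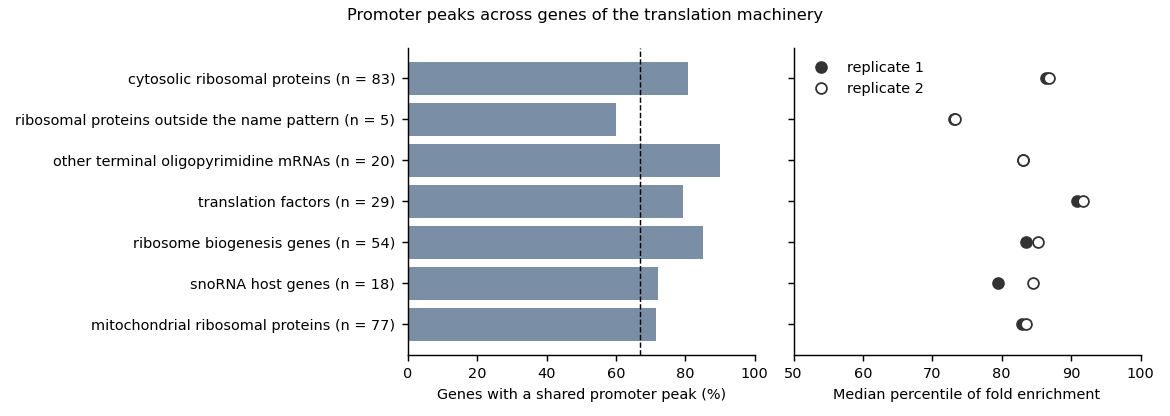
Share of genes with a shared promoter peak by name (left, %, dashed line 66.9% of coding genes) and median percentile of their fold enrichment (right, filled replicate 1, open replicate 2) for lists of the translation machinery. Translation factors have the highest medians, 90.9 and 91.8, and cytosolic ribosomal proteins come next with 86.4 and 86.9.

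By name, other genes of the translation machinery had promoter peaks in like shares. By RefSeq starts covered in both lists the order differed. That share was 74.2% of 66 cytosolic ribosomal protein genes, 80% of 25 translation factor genes and 82.6% of 69 mitochondrial ribosomal protein genes. It was 85.7% of 14 other TOP mRNAs and 91.3% of 46 ribosome biogenesis genes. The counts that follow are by name. Of 54 ribosome biogenesis genes, 46 (85.2%) had a shared promoter peak, at median percentiles of 83.5 and 85.2. The highest was NMD3, the export adaptor of the large subunit, with 32.3 and 30.0, above every ribosomal protein gene in both replicates, followed by RRP1 (23.4 and 24.7) and BYSL (18.7 and 17.0). Of 20 other TOP mRNAs 18 had one, at 83.0 and 83.1, the exceptions being EEF1B2 and EIF3L. NPM1, a nucleolar chaperone, led them with 16.1 and 17.5, followed by TPT1 (14.5 and 17.2) and RACK1, a scaffold on the small subunit (14.1 and 15.4).

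Of 29 translation factor genes 23 (79.3%) had a shared peak, and their median percentiles of 90.9 and 91.8 were above those of the ribosomal proteins. EIF4G2 (24.9 and 23.9), EIF2S2 (21.9 and 23.4) and EIF3A (20.7 and 21.0) were highest. Mitochondrial ribosomal protein genes had peaks in 55 of 77 cases (71.4%) at 82.9 and 83.6, led by MRPL18 (18.6 and 21.9), MRPL19 (17.6 and 17.4) and MRPS25 (16.4 and 21.1). For 18 snoRNA host genes the count was 13, at 79.5 and 84.5, led by SNHG7 (15.0 in both), SNHG6 (13.2 and 13.1) and CCT6A (10.6 and 11.1), and those without one were SNHG1, SNHG4, SNHG9, SNHG19 and ZFAS1.

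Of 5 ribosomal protein genes outside the name pattern, 3 had a shared promoter peak by name. Among these, RPL36AL had 10.1 and 11.0 and RPSA had 6.73 and 5.71. The start of FAU, a fusion of a ubiquitin-like protein and a small subunit protein, was covered in both lists, but by peaks of other names. Unlike RPL36A, its paralog RPL36AL had a peak in both lists.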

How the data were processed

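EP300 ChIP-seq was analysed in 2 samples of 1 group. No separate table of the input sample was used here. The deposited files are 1 annotated narrow peak table per EP300 sample, made per sample by the authors. By the names of the tables they come from ChIPseeker, called against input. Read trimming used fastp 0.19.11 and the build was GRCh38, per the submitters' processing notes. Which aligner, peak caller and threshold were used is not given in the sources used here. Per the file headers, each row holds the authors' fold enrichment (a ratio), −log10 p-value and −log10 q-value, a summit and the nearest transcript start with its distance. The deposited integer score was not used. Depth is unknown, since no column gives reads.

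Rows of equal interval, which differ only by summit, were joined on chromosomes 1 to 22 and X, giving 65276 peaks from 81061 rows and 64896 from 80208. Members had 151 and 162 rows. A promoter peak lay within 3 kb of the annotated transcript start. Peaks sharing 1 bp between replicates counted as shared, and where a gene had several, the pair with the highest lower-of-both percentile of fold enrichment was used, with its strongest summit. Percentiles were taken within a list. RefSeq starts and promoter sequences (GRCh38.p14) came from a reference table. For 16 of the 17 members outside it the gene's end by strand was used, and for RPL7 either end.

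No test was made, since there is 1 group and genes are not replicates. Groups of genes are described by counts and medians per replicate, with the SD over both replicates. The lists of other translation genes were TOP mRNAs, translation factors, ribosome biogenesis genes, snoRNA hosts, mitochondrial ribosomal proteins and ribosomal proteins outside the pattern. Members and lists were chosen with earlier results of these data known. Genes named are the 8 highest and 5 lowest by percentile, the 4 widest, narrowest and farthest from the start, members without a shared promoter peak, those with more than 1 peak in both lists, paralogs with their parents, the RPLP genes, and 3 genes a list with any exceptions up to 5. Some genes that this rule names are counted but not reported here by name. Further members were named after their values were seen, as examples of position, edges, replicate gaps or motifs. The alternatives were stricter peaks, a larger overlap, a 1 kb window, other starts, summits and ranks, a merged region, each replicate alone and fewer members. Python 3.11.15, pandas 2.3.3, numpy 2.4.6 and matplotlib 3.10.9 were used, and the joining, ranking and overlap steps were tested on simulated data.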

Additional observations from a re-analysis of the deposited data

How the results depend on the processing

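The count of members with a shared promoter peak stayed within 1.5 times its value of 67 under every alternative, from 49 of the 66 with a tabled RefSeq start covered by a peak of any name to 70 with replicate 1 alone. The differences between subunits kept their sign as means of both replicates, but not always in each replicate. Without either replicate the count was 69 to 70, the width difference (large minus small) −435.5 to −269 bp, the rank difference −4.84 to −1.60 percentiles and the summit difference 35.5 to 46 bp. With peaks of any name over RefSeq starts the width, rank and summit differences were −26.75 bp (SD 118), −0.64 percentiles (SD 0.64) and 1.25 bp (SD 34.3). There the replicates differed in direction for width and summit. Median widths of large and small subunit genes were 1392 and 1335 bp in replicate 1 and 1475.5 and 1586 bp in replicate 2. Their median summits lay at 231.5 and 206 bp in replicate 1 and at 254 and 277 bp in replicate 2. At a fold of at least 5 the width difference was −165.5 bp (SD 280) and the rank difference −1.49 percentiles. The rank difference was −1.78 by −log10 q and −4.28 among promoter peaks. The summit difference of 43 bp, whose SD is under 1 bp, was 39.25 bp at a fold of at least 5, 41.5 bp at a −log10 q of at least 5, 52 bp with 50% overlap and with a 1 kb window, 34.25 bp without the paralogs and 41 bp with the summit nearest the start. Leaving out RPL17, RPL39L and RPS12, an alternative chosen after seeing the data, gave −269 bp, −2.65 percentiles and 43.25 bp. The cause of these shifts was not tested. No paired analysis was possible because only 1 group carries replicate numbers and the input has no peak table. Without read counts, absence of a peak cannot be told apart from low depth, and strengths cannot be compared between lists.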
